A study of Mus musculus with 13 samples.

Results

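The SOX genes of neural progenitors were taken as 9 members of the mouse Sox family, Sox1, Sox2, Sox4, Sox5, Sox6, Sox8, Sox9, Sox11 and Sox21. Their gene bodies were found by gene identifier among 20689 gene bodies in the authors' deposited table. To these were added the CpG islands that hold a member's transcription start site (TSS) and every element of the file's Enh and IS classes that touches a gene body or the 10 kb on either side. Neither abbreviation is explained in the sources used here. This gave 107 of 240814 regions, made up of 9 gene bodies, 6 TSS islands, 44 Enh and 48 IS elements. A further 11 CpG islands that lie in the same windows without holding the TSS are described as well, 6 inside genes and 5 upstream.

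The values come from chromatin immunoprecipitation with sequencing (ChIP-seq) of cultured embryonic neural stem and progenitor cells, grown as spheres from mouse embryos of day 14.5, with cortex and ganglionic eminences as source tissue, and collected on day 3 of passage 5. One antibody recognised the lysine acetyltransferase KAT7 (HBO1) and the other histone H3 acetylated at lysine 14 (H3K14ac). The KAT7 libraries numbered 1 from Kat7lox/loxNesCreT/+ cells, in which Cre under nestin control had deleted Kat7, and 3 from Kat7+/+NesCreT/+ cells, in which Kat7 was intact. The H3K14ac libraries numbered 3 from deleted and 4 from intact cells. There was 1 IgG library for each antibody's experiment. Both genotypes therefore carried the Cre transgene, and deletion depended on nestin-driven expression.

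The file gives 1 merged value for each antibody and region. Which libraries and which genotype entered each merged value is not given in the sources used here, so no comparison of deleted with intact cells and none with IgG was made. Levels are RPKM (reads per length of region and per total of the column), on column totals of 134111848 reads for KAT7 and 141734087 for H3K14ac. Ranges in parentheses are 95% counting intervals, exact Poisson for a level and exact binomial for a ratio. They cover counting error only, since the merged values have no replicates and reads need not be separate molecules, and no p-value is given. A KAT7 to H3K14ac ratio compares scaled reads of antibodies that share no common scale. The file sorts genes into Top, Other and Bottom expression classes. Of 11 neural progenitor marker genes, 4 (Nes, Vim, Fabp7 and Slc1a3) were in the Top class, against 1 of 9 neuronal markers (Map2) and none of 5 astrocyte, 6 oligodendrocyte, 4 microglia and blood or 4 endothelial markers. Among the SOX members, Sox2 was in the Top class and the other 8 in the class Other, which holds most genes.

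SOX proteins bind the minor groove of DNA through a high-mobility-group (HMG) box and fall into lettered groups by its sequence. In the developing brain the SoxB1 factors maintain progenitors, SoxB2 factors counteract them, SoxC factors act as neurons form, SoxD factors lack an activation domain of their own and modulate other SOX proteins, and SoxE factors act in the switch to glia. KAT7 is the catalytic subunit of complexes that acetylate histone H3, with lysine 14 as a main site, and this mark is usually found around active start sites.

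Among the members with a RefSeq promoter, those that have a TSS island in the file had more CG dinucleotides before the start than those that have none. CpG islands are defined by their CG content, so this order was largely fixed in advance and is only descriptive. RefSeq promoter sequences (GRCm38.p6) were found for 8 of the 9 members; Sox9 is named only. In the 250 bases before the start, Sox1 had 29 CG dinucleotides, Sox2 had 27, Sox8 had 18, and Sox11 and Sox21 had 17 each, against a median of 6 over 32851 RefSeq promoters. All of these have a TSS island. Sox4, whose island begins 217 bases inside the gene, had 11. Sox6, with no island at its start, had 9. The Sox5 entry of RefSeq starts 262462 bases inside the gene body used by the file and had 3. It therefore does not describe the start at which the file has no island. The promoters of Sox21, Sox1 and Sox4 are printed because they stand at the highest KAT7 level, the lowest KAT7 level and a start outside an island. They are followed by an Enh element at the Sox8 start that drew KAT7 reads and few H3K14ac reads. Capitals mark matches on either strand to GGGCGG (a GC box), the CCAAT box, the TATAAA box, the SOX-type motifs AACAAT or AACAAAG, or the CRE motif TGACGTCA (cyclic AMP response element), and sequences run 5′ to 3′ on the minus strand for Sox21, Sox4 and Sox8 and on the plus strand for Sox1.
Sox21 promoter, chr14:118237031-118237280: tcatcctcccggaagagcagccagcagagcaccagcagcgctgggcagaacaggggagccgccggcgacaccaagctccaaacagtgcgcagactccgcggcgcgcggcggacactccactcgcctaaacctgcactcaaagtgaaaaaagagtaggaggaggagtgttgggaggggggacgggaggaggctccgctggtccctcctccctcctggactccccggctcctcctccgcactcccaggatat
Sox1 promoter, chr8:12395269-12395518: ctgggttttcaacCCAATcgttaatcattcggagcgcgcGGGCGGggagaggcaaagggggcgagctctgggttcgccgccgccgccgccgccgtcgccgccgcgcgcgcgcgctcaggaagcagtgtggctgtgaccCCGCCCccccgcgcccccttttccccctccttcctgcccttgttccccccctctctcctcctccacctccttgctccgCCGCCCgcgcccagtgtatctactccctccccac
Sox4 promoter, chr13:28953700-28953949: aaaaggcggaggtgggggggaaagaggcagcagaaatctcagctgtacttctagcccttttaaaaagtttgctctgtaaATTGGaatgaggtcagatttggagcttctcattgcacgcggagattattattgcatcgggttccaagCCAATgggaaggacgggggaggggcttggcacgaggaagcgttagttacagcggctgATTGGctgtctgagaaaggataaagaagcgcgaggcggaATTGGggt
Sox8 Enh element, chr17:25570680-25570830: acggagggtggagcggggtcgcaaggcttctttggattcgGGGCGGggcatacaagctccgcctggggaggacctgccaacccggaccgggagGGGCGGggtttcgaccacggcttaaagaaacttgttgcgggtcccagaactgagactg
The Sox21 window holds none of these motifs. The Sox1 window holds GGGCGG and CCAAT, as do those of Sox2 and Sox11, and the Sox4 window holds CCAAT. Of all 32851 promoters, 32.7% hold GGGCGG and 33.8% hold CCAAT. The window before the main Sox6 start holds AACAAAG, as do 5.03% of all promoters. Of the others searched, TATAAA is in 12.4% of promoters, AACAAT in 9.42% and TGACGTCA in 1.55%. The Sox8 element covers 144 bases before the start and 7 from it onwards, has 12 CG dinucleotides and holds GGGCGG.

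At the islands over the TSS, Sox21 and Sox2 had the most KAT7 of the members, Sox1 had the least of both signals, and H3K14ac was nearly level over the remaining members. Of 6 measured TSS islands, 2 were in the top 10.0% of all 13263 islands near a TSS for KAT7 and none for H3K14ac. The member medians were 0.604 for KAT7 and 0.579 for H3K14ac, beside 0.486 for KAT7 and 0.455 for H3K14ac over all these islands. KAT7 was above the median of all islands at 5 of the 6 members, and so was H3K14ac. A ratio of KAT7 to H3K14ac was called high where KAT7 was at least 25% above H3K14ac, and low at 0.8 or less. It was high at 2 members, Sox21 and Sox1, where 34.4% of all islands are, and low at none, against 21.5% of all islands. The share of members called high is therefore near that of islands at large.

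Among the SoxB genes, Sox2 encodes the core factor of neural stem cells and Sox1 its close relative in the neural tube, while Sox21 encodes a repressor that opposes them. The Sox21 island (chr14:118234464-118237221) held 362 KAT7 and 227 H3K14ac reads, which gave 0.979 (0.881 to 1.09) for KAT7 and 0.581 (0.508 to 0.662) for H3K14ac. Its ratio of 1.69 (1.42 to 2.00) was the highest of the 6, and its KAT7 level was above 98.7% of all islands while its H3K14ac level was above 73.3%. Sox2 (chr3:34648829-34651366), with 264 KAT7 and 227 H3K14ac reads, had a ratio of 1.23 (1.03 to 1.47), with KAT7 above 93.8% and H3K14ac above 80.0% of islands. Sox1 (chr8:12395517-12397679) had KAT7 at 0.397 (0.327 to 0.476) and H3K14ac at 0.287 (0.230 to 0.354), below the class median in both, with a ratio of 1.38 (1.04 to 1.84). The SoxB genes thus held both ends of the order of KAT7 levels.

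Sox11 of the SoxC group, which acts in newborn neurons, and the SoxE genes Sox8 and Sox9, of which Sox9 is needed for neural stem cell formation and glial fate, had nearly equal KAT7 and H3K14ac at the TSS island. Sox8 (chr17:25570143-25571451) had KAT7 at 0.627 (0.515 to 0.756) and H3K14ac at 0.615 (0.507 to 0.739). Sox9 (chr11:112781358-112783154) had KAT7 at 0.581 (0.489 to 0.686) and H3K14ac at 0.554 (0.466 to 0.653). Sox11 (chr12:27341186-27343461) had KAT7 at 0.580 (0.498 to 0.672) and H3K14ac at 0.577 (0.497 to 0.666). Their ratios of 1.02, 1.05 and 1.01 all have intervals that include 1. In the order of KAT7 levels, Sox21 stood above Sox2 by 1.26 times (1.07 to 1.48) and Sox11 above Sox1 by 1.46 times (1.15 to 1.87). Sox2 and Sox8, Sox8 and Sox9, and Sox9 and Sox11 did not differ beyond counting error. In the order of H3K14ac levels the only step beyond counting error between neighbours was the last, from Sox9 to Sox1, at 1.93 times (1.47 to 2.55).

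**Figure D1:**
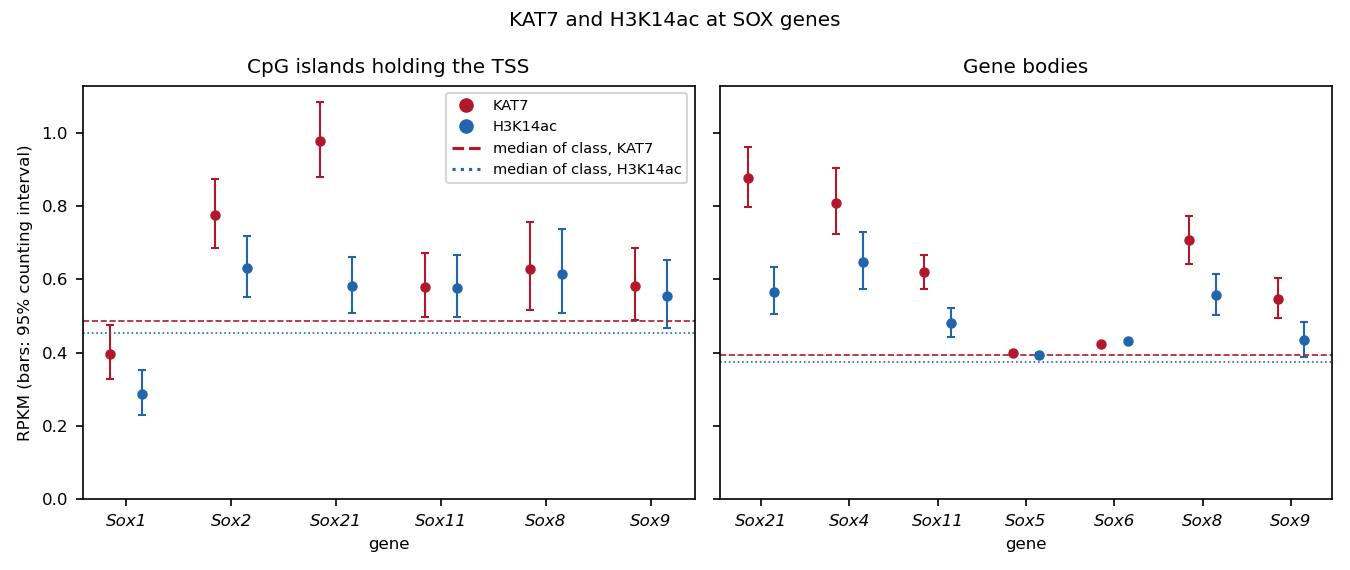
KAT7 (red) and H3K14ac (blue) in RPKM at the CpG island holding the TSS (left) and over the gene body (right) of each SOX gene measured there; points are merged values, bars 95% counting intervals, and lines the median of all regions of that class. KAT7 of Sox21 reaches 0.979 at the island and 0.876 over the body, while Sox5 reaches 0.399 over the body and Sox6 0.423.

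Over gene bodies the 5 short members that could be measured had more KAT7 than H3K14ac, and the long SoxD genes did not beyond counting error. Sox1 and Sox2 had 0 reads over the gene body for both antibodies. Both lie wholly inside the gene body of an overlapping transcript, Sox1ot and Sox2ot, and all 1123 gene bodies with no base of their own in the table are listed at 0, so these entries measure nothing. Of the 7 measured bodies, 5 had a high ratio and none a low one, against 8.08% and 2.17% of 19454 gene bodies with reads. These were Sox21, Sox11, Sox8, Sox9 and Sox4. With the antibodies scaled so that the median gene body has a ratio of 1, or with a fold of 1.5, 1 member passed in place of 5, Sox21 with 1.47 under that scaling. In level, 5 of 7 were in the top 10.0% of gene bodies for KAT7 and 6 of 7 for H3K14ac.

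Sox21 (chr14:118233233-118237030) had KAT7 at 0.876 (0.796 to 0.961) and H3K14ac at 0.567 (0.505 to 0.634) over its body, a ratio of 1.55 (1.33 to 1.79). Sox4, the SoxC partner of Sox11 in neuronal differentiation (chr13:28950716-28953682), had KAT7 at 0.810 (0.723 to 0.903) and H3K14ac at 0.647 (0.572 to 0.729), with a ratio of 1.251 (1.06 to 1.48) that stands at the threshold. Sox11 (chr12:27334268-27342718) had KAT7 at 0.619 (0.574 to 0.667) and H3K14ac at 0.480 (0.442 to 0.521). Sox8 (chr17:25565893-25570686) and Sox9 (chr11:112782210-112787757) had ratios of 1.27 (1.10 to 1.46) and 1.26 (1.09 to 1.46), at KAT7 levels of 0.706 and 0.547 and H3K14ac levels of 0.556 and 0.434. Sox21 and Sox4, and Sox4 and Sox8, did not differ in KAT7 beyond counting error, whereas each further step down the order did.

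Sox5 (chr6:143828425-144209568) and Sox6 (chr7:115471344-116038744) encode the SoxD factors, which act in cortical neuron identity and the timing of oligodendrocyte formation. Sox5 had KAT7 at 0.399 (0.394 to 0.405) and H3K14ac at 0.393 (0.388 to 0.399). Sox6 had KAT7 at 0.423 (0.418 to 0.428) and H3K14ac at 0.431 (0.426 to 0.435), and its ratio of 0.982 (0.967 to 0.997) was the only one of the 7 bodies with an interval below 1. The median of all gene bodies was 0.395 for KAT7 and 0.375 for H3K14ac, and without IgG the share of background reads in such values is not known.

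The 7 short members had more of their gene body covered by CpG island than the median gene. Islands cover 67.6% of the Sox21 body, 58.0% of Sox4, 55.4% of Sox2, 53.5% of Sox1, 39.1% of Sox9, 28.6% of Sox11 and 11.3% of Sox8, against a median of 0.589% over all gene bodies. They cover 0.223% of Sox6 and none of Sox5. Gene bodies of at most 10000 bases with at least 20% island cover, a comparison added after the values were seen, number 886 and include Sox4, Sox9, Sox11 and Sox21. In those 886 bodies, 30.1% had a high ratio, 44.1% were in the top 10.0% of all gene bodies for KAT7 and 35.7% for H3K14ac. Within them the ratio of Sox21 was above 90.9% of bodies, that of Sox11 above 74.4%, that of Sox9 above 71.0% and that of Sox4 above 70.0%. KAT7 levels of Sox21 and Sox4 were above 97.3% and 95.7% of them.

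**Figure D2:**
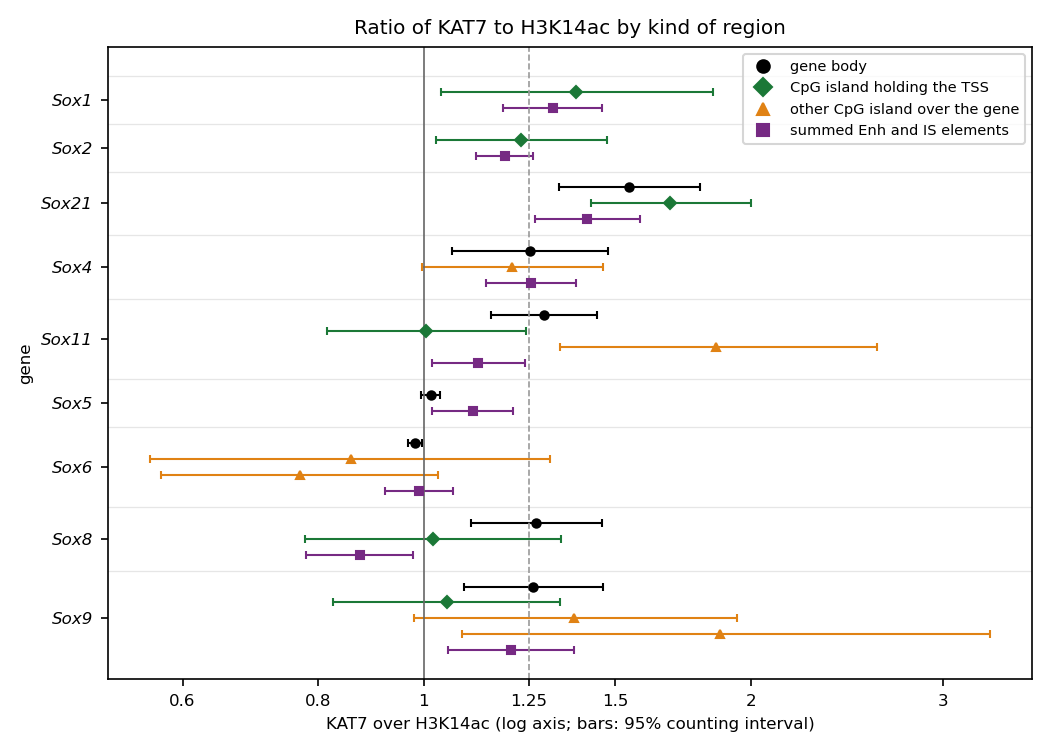
Ratio of KAT7 to H3K14ac on a log axis for each SOX gene, over the gene body (circle), the CpG island holding the TSS (diamond), other CpG islands over the gene (triangle) and the summed Enh and IS elements (square), with 95% counting intervals; the solid line marks 1 and the dashed line the threshold for a high ratio. The islands inside Sox11 and Sox9 reach 1.86 and 1.87 while their TSS islands lie at 1.01 and 1.05, and the islands of Sox6 lie below 1.

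A further CpG island inside the gene had a higher ratio than the TSS island in Sox11, and the Sox9 islands lay the same way within counting error. In Sox11 an island whose near edge lies 3024 bases after the TSS (chr12:27338810-27339694) had KAT7 at 0.860 (0.702 to 1.04) and H3K14ac at 0.463 (0.352 to 0.598). Its ratio of 1.86 (1.33 to 2.61) was 1.85 times that of the TSS island (exact conditional interval 1.24 to 2.76). In Sox9, islands 1607 and 2289 bases after the TSS (chr11:112783817-112784076 and chr11:112784499-112785465) had ratios of 1.87 (1.08 to 3.32) and 1.38 (0.978 to 1.94). They were 1.79 (0.974 to 3.33) and 1.31 (0.859 to 2.00) times the ratio of the Sox9 TSS island, and both of these intervals include 1. Of 499 islands in 452 genes that lie inside a gene within 5000 bases of its TSS and apart from its TSS island, 36.3% exceeded the TSS island's ratio by 25% or more, and the median was 1.06. The Sox11 island was above 84.2% of them.

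Sox4 and Sox6 had islands inside the gene without one at the TSS. The Sox4 island (chr13:28951746-28953465) had the highest KAT7 level of any member's island longer than a kilobase, 1.02 (0.893 to 1.16), with 0.846 (0.734 to 0.969) for H3K14ac, above 99.0% of islands for KAT7 and 94.8% for H3K14ac. Its ratio was 1.21 (0.996 to 1.46). The Sox6 islands, 4574 and 6236 bases after the file's TSS (chr7:116033774-116034170 and chr7:116031643-116032508), lie before a second RefSeq start of Sox6 at 116031047. They had KAT7 levels of 0.810 (0.586 to 1.09) and 0.715 (0.570 to 0.887) and H3K14ac levels of 0.944 (0.707 to 1.24) and 0.930 (0.767 to 1.12). These were the highest H3K14ac levels at members' islands, but their intervals overlap that of the Sox4 island. The Sox6 islands are also shorter, 397 and 866 bases against 1720, and edge reads raise the RPKM of short regions. Their ratios of 0.857 (0.560 to 1.31) and 0.769 (0.573 to 1.03) could not be told from 1.

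The 5 upstream islands held few reads, 21 to 88 for KAT7 and 17 to 78 for H3K14ac, and each ratio had an interval that includes 1. KAT7 was 0.454 and H3K14ac 0.381 at the Sox1 island 9023 bases before the TSS (chr8:12385051-12386496). KAT7 was 0.669 and H3K14ac 0.575 at the Sox2 island 7634 bases before it (chr3:34642003-34642371). The islands 4558 and 5910 bases before Sox4 (chr13:28958240-28958627 and chr13:28959592-28959809) had ratios of 0.965 (0.508 to 1.82) and 1.68 (0.882 to 3.28). The island 8354 bases before Sox8 (chr17:25579040-25579410) had KAT7 at 0.443 (0.278 to 0.671) and H3K14ac at 0.534 (0.355 to 0.772).

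**Figure D3:**
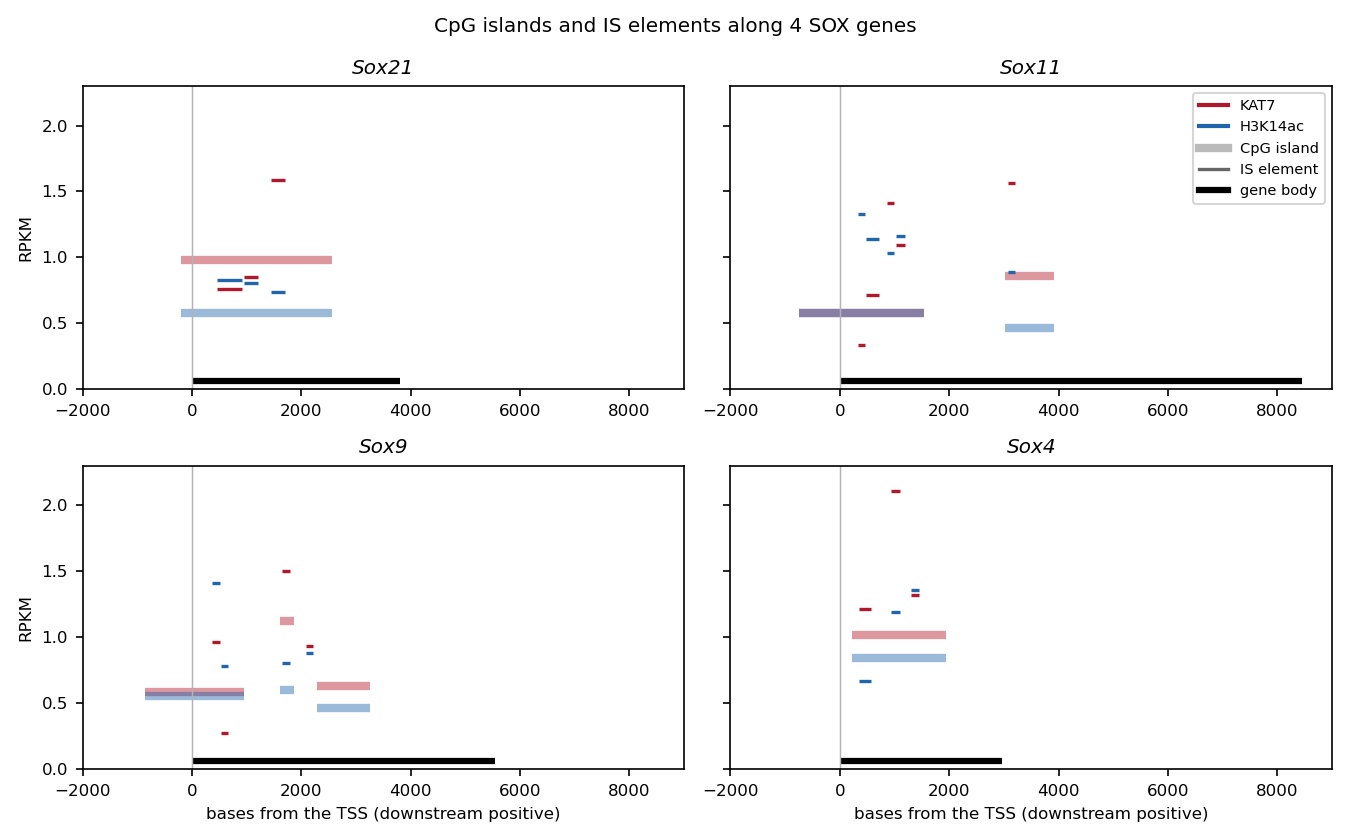
RPKM of KAT7 (red) and H3K14ac (blue) at CpG islands (wide pale bars) and IS elements (thin bars) by distance from the TSS for Sox21, Sox11, Sox9 and Sox4; the black bar is the gene body. In Sox11 the signals coincide at the TSS island, at 0.580 for KAT7 and 0.577 for H3K14ac, and separate at the island further in, where KAT7 is 0.860 and H3K14ac 0.463.

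The ratio at IS elements, 95 to 560 bases long at the members, differed along the gene in the sum but not at every member. Of 12 IS elements centred within 750 bases after a member's TSS, 4 had more KAT7 than H3K14ac, while of 15 centred between 750 and 3500 bases, 13 did. Over all genes the shares were 50.1% of 10387 elements and 59.2% of 4980. Before the TSS, of 3 member elements centred in the last 2000 bases, 2 had more KAT7, against 60.9% of 7034. Summed over the members, KAT7 was 0.733 (0.642 to 0.833) and H3K14ac 0.826 (0.732 to 0.929) in the near zone, while KAT7 was 1.14 (1.03 to 1.255) and H3K14ac 0.768 (0.684 to 0.860) in the far zone. The ratios were 0.887 (0.743 to 1.06) near and 1.49 (1.28 to 1.73) far, beside 0.962 and 1.12 over all genes. The far ratio was 1.67 times the near one at the members (1.32 to 2.12) and 1.17 times over all genes. The zones were set after the values were seen, and elements of a gene are not independent. The far zone stops short of the Sox6 elements at 3544.5, 4000.5, 4748 and 5201.5 bases, so Sox6 entered neither zone. Their ratios were 1.27, 0.894, 0.818 and 0.572, all with intervals that include 1. Also past it were Sox1 elements at 5708 and 5975 bases, with ratios of 1.21 and 0.423.

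By gene, the far ratio exceeded the near one beyond counting error at Sox1 (2.79 times, 1.42 to 5.51), Sox11 (2.65 times, 1.47 to 4.82) and Sox9 (2.61 times, 1.27 to 5.39). It did not at Sox21 (1.72 times, 0.995 to 2.99) or Sox2 (1.12 times, 0.591 to 2.11), and at Sox8 and Sox4 the values were 0.848 (0.293 to 2.50) and 0.765 (0.383 to 1.51). Leaving out any 1 of the 7 genes with elements in both zones gave between 1.53 and 1.86 times for the rest. The zones were set on these same values, so neither this range nor the intervals by gene test the difference. The elements named next were picked for the highest lower bound of KAT7 or of H3K14ac, which favours contrasts between the signals. At Sox11 the element centred 399.5 bases after the TSS (chr12:27342252-27342385) held 6 KAT7 and 25 H3K14ac reads, and the one 3137.5 bases after it (chr12:27339521-27339640) held 25 KAT7 and 15 H3K14ac reads. At Sox9 the elements at 441.5 and 1727.5 bases (chr11:112782574-112782729 and chr11:112783863-112784012) held 20 KAT7 and 31 H3K14ac reads near the TSS, and 30 KAT7 and 17 H3K14ac reads further in. At Sox21 the element 1574 bases in (chr14:118235327-118235585) had KAT7 at 1.59 (1.20 to 2.07) and H3K14ac at 0.738 (0.487 to 1.07).

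**Figure D4:**
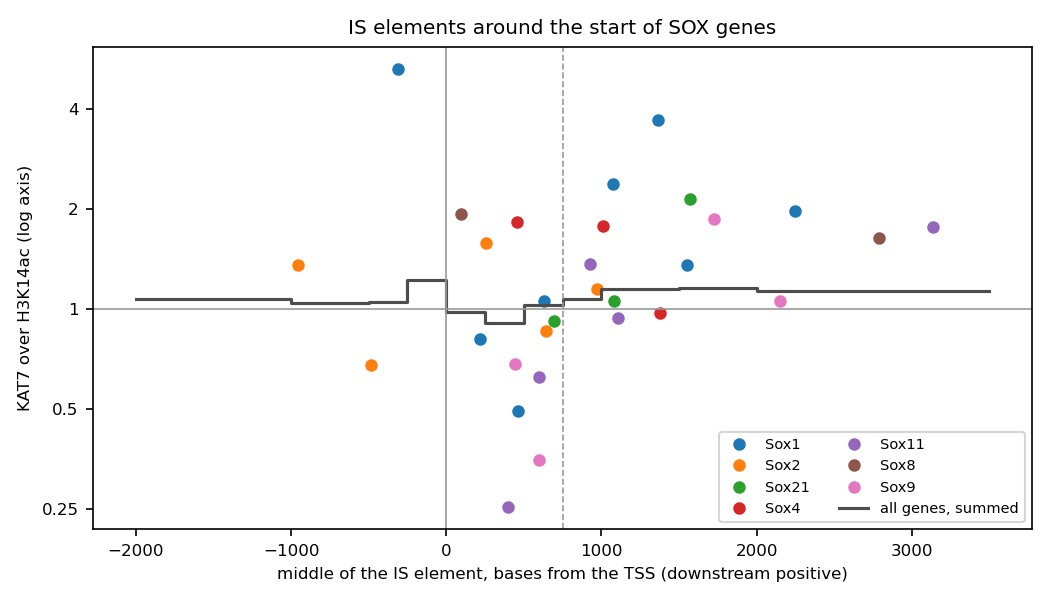
Ratio of KAT7 to H3K14ac (log axis) of single IS elements against the distance of their middle from the TSS, coloured by SOX gene, with the summed ratio of all genes as a grey step line; the dashed line marks 750 bases. Between 750 and 3500 bases after the TSS 13 of 15 member elements lie above 1, and within 750 bases after it 4 of 12 do.

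The highest KAT7 level of any member element was inside Sox4, at an IS element 1013 bases after the TSS (chr13:28952586-28952752), with 2.11 (1.55 to 2.81) for KAT7 and 1.19 (0.791 to 1.72) for H3K14ac. Next came an IS element 97 bases after the Sox8 TSS (chr17:25570521-25570657), with KAT7 at 1.70 (1.15 to 2.41) and H3K14ac at 0.882 (0.514 to 1.41). The Enh element just before it, whose sequence is given above, held 15 KAT7 and 4 H3K14ac reads, a ratio of 3.96 (1.26 to 16.4). Sox1 had an IS element centred at -309 bases from its TSS (chr8:12395143-12395277), with 20 KAT7 and 4 H3K14ac reads and a ratio of 5.28 (1.77 to 21.3). These counts are small and their intervals wide. Neither of these elements with 4 H3K14ac reads was named by the rule of highest lower bound, and both were picked with their values known. The Sox2 elements before the TSS had ratios of 1.36 and 0.679. In Sox1 the element with most KAT7 lay 2246.5 bases after the TSS (chr8:12397598-12397933), with KAT7 at 1.20 (0.903 to 1.57) and H3K14ac at 0.611 (0.409 to 0.877). In Sox2 the highest KAT7 level was before the TSS, in an element at -954.5 bases (chr3:34648977-34649124), with KAT7 at 1.37 (0.903 to 1.99) and H3K14ac at 1.01 (0.624 to 1.54). The Sox2 element with the highest lower bound for KAT7 lay 971 bases after the TSS (chr3:34650835-34651117), with KAT7 at 1.27 (0.936 to 1.68) and H3K14ac at 1.10 (0.7999 to 1.48). Sox2 was also the member with an H3K14ac maximum before its TSS, at -487.5 bases (chr3:34649387-34649648), with 0.771 (0.508 to 1.12) for KAT7 and 1.14 (0.818 to 1.53) for H3K14ac.

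The elements with most H3K14ac in Sox21 and Sox1 had fewer KAT7 than H3K14ac reads. Picking an element for its H3K14ac level favours a low ratio, and the intervals take no account of this choice. The reverse holds for elements picked for KAT7. In Sox21 the element was an IS element beyond the gene's end, 12468.5 bases after the TSS (chr14:118224510-118224613). It held 5 KAT7 and 17 H3K14ac reads, a ratio of 0.311 (0.0897 to 0.878). In Sox1 it lay 460.5 bases after the TSS (chr8:12395919-12396040), with 7 KAT7 and 15 H3K14ac reads and a ratio of 0.493 (0.170 to 1.29). In Sox4 it lay 1375 bases after the TSS (chr13:28952242-28952372), with KAT7 at 1.32 (0.836 to 1.98) and H3K14ac at 1.36 (0.878 to 2.00). In Sox6 the same IS element led for both antibodies, 4748 bases after the TSS and inside the nearer island (chr7:116033909-116034083), with KAT7 at 1.03 (0.659 to 1.53) and H3K14ac at 1.26 (0.854 to 1.78).

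Summed over all Enh and IS elements of a gene, the ratio was high at 3 of 9 members, against 20.1% of 17623 genes, and low at none, against 10.7%. The 3 were Sox21 with 1.41 (1.27 to 1.58), Sox1 with 1.31 (1.18 to 1.46) and Sox4 with 1.254 (1.14 to 1.38). Sox9 had 1.20 (1.05 to 1.38), Sox2 1.19 (1.12 to 1.26), Sox11 1.12 (1.02 to 1.24), Sox5 1.11 (1.02 to 1.21) and Sox6 0.990 (0.921 to 1.06). Without the elements that touch a TSS island, whatever their length, the count was 4. Sox11 with 1.68 and Sox9 with 1.41 were then high, beside Sox1 with 1.56 and Sox4, and Sox21 with 1.14 was not. At Sox11 this dropped an Enh element of 9568 bases. It left an Enh element with 18 KAT7 and 12 H3K14ac reads and an IS element with 25 and 15. Each of those had a ratio interval that includes 1, and no intervals are given for the sums in this setting. Sox2 had no element left in this setting, and Sox4, which has no TSS island, lost none. The share of all genes was not computed for this setting, so the 20.1% does not apply to it. An IS element that lies in an Enh element enters the sum with both, so its reads are counted again and the intervals of these sums are too narrow. Sox2 carries the longest element of the members, an Enh of 24107 bases (chr3:34647962-34672068) that spans the gene, with 0.645 (0.618 to 0.674) for KAT7 and 0.537 (0.513 to 0.563) for H3K14ac. Of the 92 single elements, 34 had a high and 17 a low ratio, against 33.2% and 26.5% of 100669 elements, with a median of 1.06 in both sets.

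Sox8 stood apart, with the only summed interval below 1, 0.873 (0.780 to 0.977). Its Enh elements alone, without such repeated reads, gave 0.849 (0.751 to 0.959). With only the elements that touch the gene body, and none of the flanks, its ratio was 1.55. An Enh element of 3098 bases beyond the gene's end (chr17:25559600-25562697) had KAT7 at 0.441 (0.379 to 0.509) and H3K14ac at 0.743 (0.664 to 0.828). An IS element within it (chr17:25560218-25560312), 95 bases long and in no gene body of the table, had the highest H3K14ac of any member element, 3.30 (2.40 to 4.43), against 1.51 (0.907 to 2.35) for KAT7. The gene bodies of Cerox1 and Lmf1 reach into the Sox8 window, and elements were not assigned between neighbours.

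Of the 11 other SOX genes taken for comparison, 9 have a gene body in the table; Sox14 and Sry were not analysed here. At TSS islands, 5 of the 6 neural progenitor members had more KAT7 and more H3K14ac than all 6 other SOX genes measured, and Sox1 lay among those. Some counting intervals overlapped: Sox13 had KAT7 at 0.462 (0.370 to 0.571) and Sox18 had H3K14ac at 0.475 (0.385 to 0.580). For Sox9 the lower bounds were 0.489 for KAT7 and 0.466 for H3K14ac. The others ranged from 0.263 to 0.462 for KAT7 and from 0.216 to 0.475 for H3K14ac, with medians of 0.371 for KAT7 and 0.316 for H3K14ac. The lowest in both was Sox3, which belongs to the SoxB1 group of Sox1 and Sox2. It had KAT7 at 0.263 (0.212 to 0.322) and H3K14ac at 0.216 (0.172 to 0.269). High island levels were thus not shared by all SoxB1 genes. Their ratios were high at 3 of 6 islands, against 34.4% of all islands: Sox7 (1.47, 0.966 to 2.25), an endothelial factor, Sox13 (1.30, 0.936 to 1.81) and Sox30 (1.30, 0.784 to 2.18), all with intervals that include 1. Over gene bodies 3 of 9 had a high ratio, against 8.08% of all gene bodies. These 3 bodies are short, 1691 to 5486 bases, and 30.1% of short bodies with at least 20% island cover had a high ratio. Sox15 had KAT7 at 0.574 (0.479 to 0.681) and H3K14ac at 0.301 (0.235 to 0.379), a ratio of 1.91 (1.42 to 2.58), although its body overlaps that of Mpdu1. Sox3, the SoxB1 gene on chromosome X, had 1.30 (0.945 to 1.78), and Sox17, an endoderm factor in the Bottom expression class, had 1.26 (1.06 to 1.505). Sox18, another endothelial factor, was in the top 10.0% of bodies for H3K14ac with 0.450 (0.372 to 0.540).

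**Figure D5:**
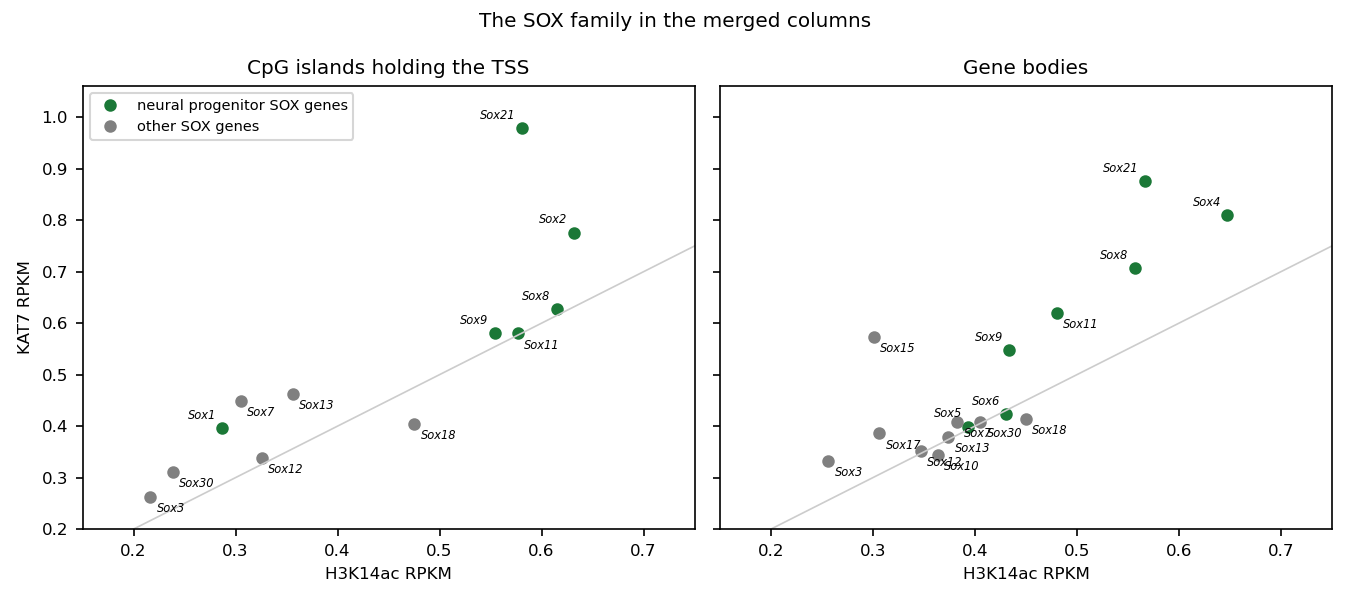
KAT7 against H3K14ac in RPKM at TSS islands (left) and gene bodies (right) for the neural progenitor SOX genes (green) and other SOX genes (grey); the line marks equal values and the axes do not start at 0. At the islands 5 of 6 green points exceed every grey point on both axes, and Sox1 lies among the grey points. The lowest grey point there is Sox3, a SoxB1 gene like Sox1 and Sox2.

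Of 20 genes known as partners or targets of these factors, 13 had a TSS island, with medians of 0.611 for KAT7 and 0.468 for H3K14ac. At these islands 5 of 13 had a high ratio, near the 34.4% of all islands, and none a low one, against 21.5%. Over gene bodies 4 of 20 had a high ratio, against 8.08% of all gene bodies, and none a low one, against 2.17%. The 4, Pou3f2, Pou3f3, Hes1 and Hes5, have bodies of 1449 to 6272 bases, where the median of all is 18169.5. Of the short bodies with at least 20% island cover, 30.1% had a high ratio, and the cover of these 4 is not given here. Pou3f3, which encodes a POU factor that binds DNA beside SOX2, had KAT7 at 0.974 (0.861 to 1.10) and H3K14ac at 0.444 (0.371 to 0.527) at its island, the same order as Sox21. The island of Nes, whose intronic enhancer is a known SOX and POU target, had the highest levels of the partners' islands. KAT7 was 1.69 (1.47 to 1.93) and H3K14ac 1.52 (1.32 to 1.74), above 99.9% and 99.8% of all islands, with a ratio of 1.11 (0.915 to 1.36). Nr2e1, which encodes an orphan nuclear receptor of progenitors, had KAT7 at 0.696 (0.613 to 0.787) and H3K14ac at 0.615 (0.539 to 0.698) at its island. The island of the Notch receptor gene Notch1 had KAT7 at 0.674 (0.569 to 0.793) and H3K14ac at 0.655 (0.554 to 0.769). The Notch effector genes Hes1 and Hes5 had gene body ratios of 1.30 (1.07 to 1.59) and 1.57 (1.17 to 2.10). Over log2 KAT7 and H3K14ac at the TSS island and gene body, 4 values from the 2 merged columns, the genes closest to Sox21 among 9967 were Znhit2, Id3, Jun, Zfp36l2 and Terc, at distances of 0.27 to 0.39 log2 units.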

How the data were processed

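The authors deposited 1 table of genomic regions with a read count and an RPKM value for 1 merged KAT7 and 1 merged H3K14ac column, per the file headers. The submitters' processing notes name mm10 as build and list featureCounts, deepTools, Picard, SAMtools and Bowtie2. The sources used here give no versions or roles, no meaning of SC and gc in the column names, and no word on subtraction of IgG. In 100% of regions holding reads the deposited RPKM was the count divided by end minus start and by 1 total per column (relative tolerance 1e-06).

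Intervals, ratios and percentiles were computed with Python 3.11.15, pandas 2.3.3, NumPy 2.4.6 and SciPy 1.17.1, without a filter on low counts, and the interval code was tested on simulated data. Edge reads raise the RPKM of short regions, so percentiles were taken within a class. Minus-strand promoter entries (10290) have a length below 0 and 0 reads, and were left out. RefSeq names (GRCm38.p6) matched 96.7% of gene bodies. A ratio was called where KAT7 was at least 25% above H3K14ac, or at 0.8 or less. All members were named, with the Enh or IS element of highest lower bound for each antibody. Of SOX partners up to 6 were named by lower bound of KAT7, and of the other SOX genes those past the fold or in the top 10.0%. Alternatives covered the fold, scaling, read minimum, flank, element choice and background. Members and lists were chosen with earlier results of these data known. The planned limma comparison of Kat7-deleted with Kat7-intact libraries needs values per library and was not run.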

Additional observations from a re-analysis of the deposited data

How the results depend on the processing

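Over the alternatives run, 28 counts of members stayed within 1.5 times the count reported and 4 did not. With a fold of 1.5 in place of the fold used, the members called for the KAT7 to H3K14ac ratio numbered 1 at gene bodies, 1 at TSS islands and 0 for summed elements, and with median-of-ratios scaling 1 at gene bodies. At gene bodies 4 of the 5 ratios called lay between 1.251 and 1.29. Of the ratios of single members, 70 values stayed within the counting interval, 14 did not, and none that was called changed direction. Among the 14 that moved were the summed elements of Sox11, 1.68 without elements touching the TSS island and 0.861 for IS elements alone (added after seeing the data). Those of Sox21 also moved, to 1.14 without elements touching the TSS island. Counts in the top 10.0% moved by at most 1 member with length-matched regions, without overlapping regions, on autosomes alone or against islands holding a TSS alone. No paired analysis was possible because the file holds 1 merged column per antibody, and for the same reason no replicate could be left out. Depth limits single elements most: the IS elements named held 4 to 55 reads per antibody.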

Other observations

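On the plus strand, where the file's promoter and post-TES windows (TES, transcription end site) of 2001 bases hold reads, Sox2, Sox9 and Sox1 could be followed past their ends. The window before Sox2 (chr3:34648005-34650005) had KAT7 at 0.619 (0.528 to 0.721) and H3K14ac at 0.649 (0.559 to 0.750), a ratio of 0.953 (0.768 to 1.18). The window after it (chr3:34652461-34654461) had KAT7 at 0.790 (0.688 to 0.904) and H3K14ac at 0.469 (0.393 to 0.556), a ratio of 1.68 (1.35 to 2.11). KAT7 there was above 99.6% of plus-strand post-TES windows. At Sox9 the ratio was 1.46 (1.14 to 1.88) before the TSS and 1.39 (1.04 to 1.87) after the TES, and at Sox1 it was 1.45 (1.10 to 1.91) and 1.12 (0.848 to 1.47).

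Deep inside Sox6, an Enh element 286264.5 bases after the TSS (chr7:115752263-115752696) had KAT7 at 0.809 (0.595 to 1.08) and H3K14ac at 0.375 (0.238 to 0.562). Another (chr7:115824236-115825829), which holds a RefSeq start of Sox6 at 115824710, had KAT7 at 0.562 (0.466 to 0.672) and H3K14ac at 0.381 (0.305 to 0.470). Both were above 1 in ratio, 2.16 (1.29 to 3.73) and 1.47 (1.11 to 1.97). These elements were chosen after their values were seen. In Sox5 the elements with most KAT7 and most H3K14ac (chr6:143995160-143995310 and chr6:144137520-144137670) had ratios of 1.28 (0.595 to 2.81) and 0.939 (0.448 to 1.95), which could not be told from 1.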
